A study of Mus musculus with 9 samples.

Results

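Matrix metalloproteinases (MMPs) and tissue inhibitors of metalloproteinases (TIMPs) were followed in 9 subcutaneous tumours of LLC, the mouse Lewis lung carcinoma line. Members were the rows of the gene table whose name was 1 of 10 listed symbols, 7 MMPs (Mmp2, Mmp3, Mmp9, Mmp10, Mmp12, Mmp13 and Mmp14) and 3 TIMPs (Timp1, Timp2 and Timp3), out of 34745 genes in all. Every member had counts in every tumour, and all 10 passed the filter on low counts. The hosts were male wild-type C57BL/6 mice whose age is given as 6 to 8 with no unit, and each carried 1 tumour line in the right flank. At a tumour volume of about 100 mm3 they were randomised to isotype control antibody at 10 mg/kg, to anti-PDL1 antibody at 10 mg/kg, or to anti-PDL1 antibody at 10 mg/kg together with BTZ at 0.5 mg/kg, all given intraperitoneally, with 3 tumours per group. All groups thus shared the tumour line, the site and an injected antibody, no group was left without injection, and no group received BTZ with the isotype antibody. The time of collection was not given in the sources used here.

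MMPs are zinc-dependent endopeptidases that cut proteins of the extracellular matrix and the cell surface. Most are secreted as inactive proenzymes and are activated by other proteases, among them plasmin, stromelysins and the membrane-anchored Mmp14, and TIMPs bind and block the active enzymes. Timp2 also acts with Mmp14 at the cell surface in the activation of proMmp2, so it is both an inhibitor and a cofactor. In tumours these genes are transcribed by carcinoma cells, fibroblasts, endothelial cells, macrophages and neutrophils, which a piece of whole tumour mixes. In such bulk RNA, fewer cells of a type and less RNA per cell cannot be told apart.

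The active site is shown because all 7 proteases share it. In the coding sequence of each (GENCODE M21, mm10), 33 bases encode the zinc-binding site, with the codons of the 3 zinc-binding histidines, the catalytic glutamate and a conserved glycine in capitals.
Mmp3: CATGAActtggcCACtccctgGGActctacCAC
Mmp10: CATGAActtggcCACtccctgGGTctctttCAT
Mmp13: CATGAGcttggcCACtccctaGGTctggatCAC
Mmp12: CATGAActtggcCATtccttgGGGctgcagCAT
Mmp2: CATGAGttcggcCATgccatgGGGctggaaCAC
Mmp14: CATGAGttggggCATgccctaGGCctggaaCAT
Mmp9: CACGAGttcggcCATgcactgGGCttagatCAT
The site lay within 1 exon in every case, exon 5 of 10 for Mmp3 (chr9:7449775-7449807), Mmp10 (chr9:7504858-7504890), Mmp12 (chr9:7352914-7352946), Mmp13 (chr9:7276573-7276605) and Mmp14 (chr14:54437627-54437659), and exon 8 of 13 for the gelatinases Mmp2 (chr8:92839279-92839311) and Mmp9 (chr2:164951133-164951165), all on the plus strand. Against the Mmp3 site, that of Mmp10 differed at 4 bases, Mmp13 at 6, Mmp12 at 7, Mmp2 at 10, Mmp14 at 12 and Mmp9 at 13. The coding sequences of the 3 TIMPs held no such site. Over the whole coding sequence Mmp3 and Mmp10 were 80.5% identical, with a longest identical run of 104 bases, so reads of the abundant Mmp3 could be counted for Mmp10. Every other pair of member MMPs had no identical run over 18 bases.

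Column totals were 18.52 to 21.51 M counts (M, mega), and 14506 genes were tested. Markers behind the label lung adenocarcinoma were present in part. Nkx2-1, Sftpc, Sftpb and Sftpd had 0 counts in all 9 tumours, and Epcam stayed between 0 and 0.247 CPM (counts of a gene relative to those of its library), and Krt7 between 0 and 0.500 CPM. Napsa, also a marker of lung adenocarcinoma, was at 4.16 to 8.96 CPM, Cdh1 at 1.44 to 9.30, Krt8 at 3.64 to 26.6 and Krt18 at 56.6 to 113. Skeletal muscle markers set 1 tumour of each group apart, with a summed level of 2919 CPM in isotype 3, 1079 in anti-PDL1 1 and 822 in BTZ+anti-PDL1 1 against 5.31 to 218 in the other 6. Isotype 3 was also highest in summed adipocyte markers, at 79.4 CPM against at most 31.5, and keratinocyte markers, at 26.1 against at most 13.3. The isotype 2 tumour had the least T cell marker RNA, 1.78 CPM summed over 6 genes against 9.92 to 21.0 in the others. These tumours are named below beside the results they move.

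Per gene length, in the deposited FPKM, Mmp3 led the members and Timp3 was lowest. The stromelysin Mmp3, which cuts proteoglycans and other matrix proteins and activates other proMMPs, averaged 306 FPKM and stood at place 99 among all genes. Timp2 followed at 131 ± 10.2 FPKM (SD, n = 9) and the membrane-type Mmp14 at 115 ± 12.2 FPKM (SD, n = 9), at places 239 and 281. Timp1 averaged 30.6 FPKM, Mmp9 12.7, Mmp2 10.4, Mmp12 7.59, Mmp10 3.95, Mmp13 3.11 and Timp3 1.51. Mmp3, Mmp14 and Timp2 together made 81.5% to 93.8% of the summed FPKM of the 10 genes. Only at Mmp14 over Timp1 and at Timp1 over Mmp9 did neighbours in this order keep apart in their ranges over the 9 tumours, and Timp1 held place 4 in every tumour. Mmp3 was above Timp2 in 8 of 9 tumours, and Timp2 above Mmp14 in 8 of 9. The order depended on the length used. FPKM was built on 9954 bases for Mmp12, 5773 for Mmp14 and 9033 for Timp3, whereas the GENCODE transcript with the longest coding sequence has 3607, 2596 and 4722. Per kilobase of those transcripts Mmp14, at 255 CPM per kilobase, stood above Timp2, at 144, in every tumour, by 1.59 to 2.04 times, and Mmp12, at 21.0, stood above Mmp9, at 15.8.

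**Figure D1:**
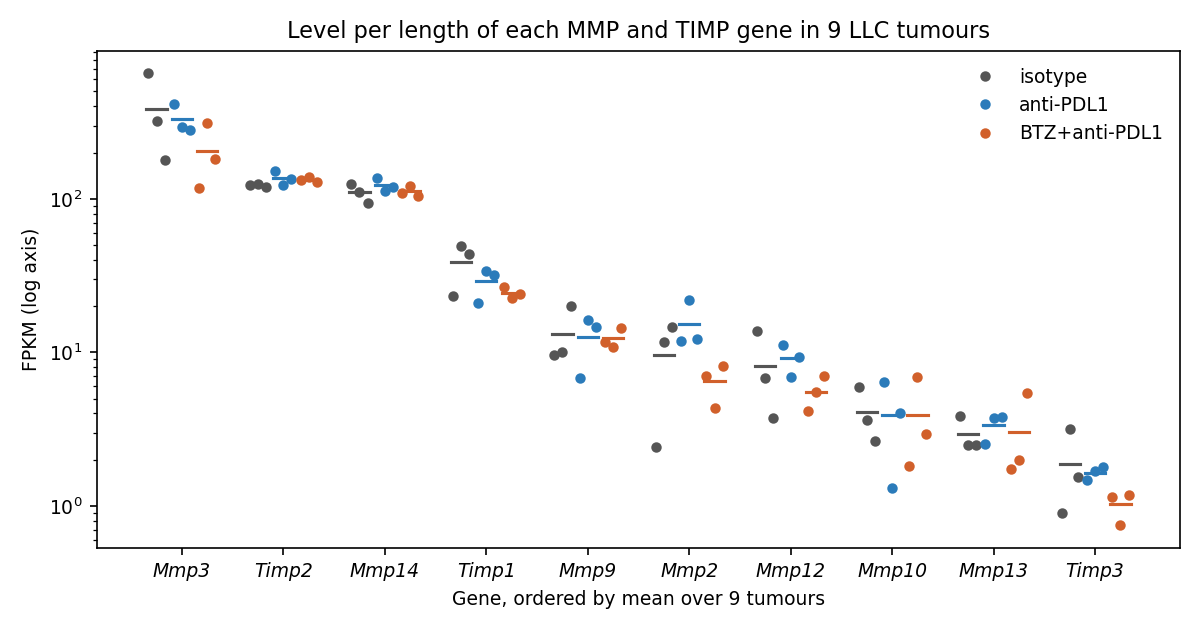
Deposited FPKM on a log axis for the 10 genes, ordered by mean, with 1 point per tumour and a bar at each group mean; points run in replicate order within a group. Mmp3, Timp2 and Mmp14 lie near or above 100 FPKM, and the groups of most genes overlap.

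Members differed in how much they varied between tumours of the same group. The within-group SD of log2 CPM was 0.93 for Mmp10, 0.90 for Mmp2, 0.71 for Mmp3, 0.63 for Mmp12, 0.59 for Mmp13, 0.58 for Timp3, 0.53 for Mmp9 and 0.41 for Timp1, against a median of 0.17 over all genes tested. Timp2 at 0.10 and Mmp14 at 0.17 were the steady pair, and Timp2 spanned only 1.31-fold over all 9 tumours. CPM values below are scaled by TMM, edgeR's correction for library composition, and given in the order of tumours 1, 2 and 3 of each group.

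The gelatinases cut denatured collagen and basement membrane collagen. Mmp2, a product mainly of fibroblast-like cells, was at 7.40, 36.8 and 43.3 CPM in isotype tumours, 35.9, 66.1 and 37.2 under anti-PDL1, and 21.1, 13.0 and 24.7 under BTZ+anti-PDL1. The low isotype 1 and the high anti-PDL1 2 stood 8.94-fold apart, and every BTZ+anti-PDL1 tumour lay below every anti-PDL1 tumour but above isotype 1. Mmp9, the gelatinase of neutrophils and macrophages, was at 38.0, 41.0 and 77.7 CPM in isotype tumours, 26.7, 64.2 and 58.4 under anti-PDL1, and 45.7, 42.5 and 56.5 under BTZ+anti-PDL1. All BTZ+anti-PDL1 values of Mmp9 lay inside the range of the other 2 groups.

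The stromelysins Mmp3 and Mmp10 have closely similar catalytic domains. Mmp3 was at 1189, 595 and 317 CPM in isotype tumours, 748, 527 and 510 under anti-PDL1, and 210, 554 and 327 under BTZ+anti-PDL1. Isotype 1 was the highest and BTZ+anti-PDL1 1 the lowest, 5.66-fold apart, and all groups overlapped. Mmp10 was at 10.3, 6.48 and 4.50 CPM in isotype tumours, 11.0, 2.23 and 6.93 under anti-PDL1, and 3.10, 11.7 and 5.05 under BTZ+anti-PDL1, so each group held both low and high tumours.

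Mmp12, the macrophage elastase, was at 137, 70.6 and 36.3 CPM in isotype tumours, 111, 69.1 and 93.6 under anti-PDL1, and 40.5, 54.3 and 69.1 under BTZ+anti-PDL1. Isotype tumours spanned the values of both other groups, and the lowest anti-PDL1 tumour (69.0623 CPM) exceeded the highest BTZ+anti-PDL1 tumour (69.0541 CPM) only in the second decimal. The collagenase Mmp13, which opens fibrillar collagen, was at 10.4, 6.88 and 6.53 CPM in isotype tumours, 6.75, 9.95 and 10.2 under anti-PDL1, and 4.60, 5.24 and 14.4 under BTZ+anti-PDL1. Both the lowest and the highest Mmp13 value were in the BTZ+anti-PDL1 group. Mmp14, a collagenase anchored in the plasma membrane and an activator of proMmp2, was at 724, 666 and 533 CPM in isotype tumours, 783, 651 and 692 under anti-PDL1, and 623, 696 and 598 under BTZ+anti-PDL1. The groups overlapped, within a total span of 1.47-fold.

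Among the inhibitors, Timp1, the soluble TIMP most readily induced by cytokines, was at 32.3, 70.2 and 59.5 CPM in isotype tumours, 29.1, 47.0 and 44.4 under anti-PDL1, and 36.2, 30.8 and 32.9 under BTZ+anti-PDL1. Isotype 2 and isotype 3 were the highest, isotype 1 lay in the BTZ+anti-PDL1 range, and the BTZ+anti-PDL1 tumours kept within 30.8 to 36.2 CPM. Timp1 lies within Syn1 on the opposite strand, whose level was 17.6 to 22.5 CPM. The strand setting of the counting was not given in the sources used here, so reads of the Timp1 locus and its antisense partner cannot be told apart. Timp2, expressed at a steady level in most connective tissues, was at 508, 533 and 478 CPM in isotype tumours, 625, 506 and 555 under anti-PDL1, and 533, 562 and 522 under BTZ+anti-PDL1. Its groups overlapped in every comparison. Timp3, the TIMP that binds to the matrix and also blocks ADAM proteases, was at 8.19, 29.5 and 13.6 CPM in isotype tumours, 13.2, 15.2 and 16.3 under anti-PDL1, and 10.2, 6.68 and 10.7 under BTZ+anti-PDL1. All BTZ+anti-PDL1 values of Timp3 were below all anti-PDL1 values, while isotype 2 held the highest value of all and isotype 1 lay inside the BTZ+anti-PDL1 range. Timp3 lies within Syn3 on the opposite strand, which was at 0 to 0.416 CPM.

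**Figure D2:**
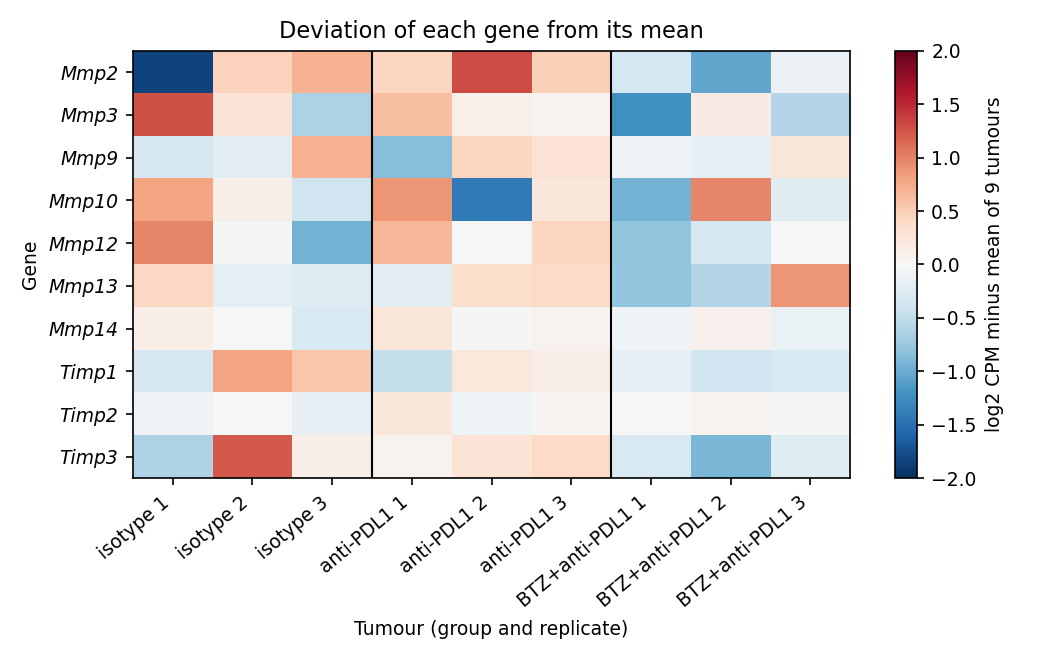
Log2 CPM of each gene minus its mean over the 9 tumours, with tumours in columns by group and replicate (lines separate the groups) and colour from -2 to 2. Isotype 1 is high in Mmp3 and Mmp12 and low in Mmp2, isotype 2 is high in Timp1 and Timp3, and Timp2 and Mmp14 are pale throughout.

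Anti-PDL1 against isotype asked what the antibody alone changed, and no member passed the test. With edgeR's quasi-likelihood test, 0 of 10 members had a Benjamini-Hochberg adjusted p under 0.05, where 0.0138% of all genes tested did, and the lowest adjusted p was 0.785 (Timp2). At an unadjusted p under 0.05 the count was also 0 of 10, against 6.35% of all genes, and groups failed to overlap for 0 of 10, against 12.7% of all genes. Members were split 5 higher and 5 lower, with a median log2 fold change of 0.037 beside -0.0034 for all genes. Mmp2 had the largest difference, 0.67 ± 0.61 (SE), with a 95% interval from -0.77 to 2.11, and was 0.22 without isotype 1. Timp1 differed by -0.43 ± 0.28 (SE), from -1.08 to 0.23. For Mmp14 (0.14, from -0.13 to 0.42) and Timp2 (0.15, from -0.044 to 0.34) the intervals were narrow, whereas for Mmp10 the interval ran from -1.59 to 1.44. Without the muscle-rich tumour of each group, Mmp9 was at 0.64, Mmp12 at -0.36 and Mmp14 at -0.050, each with its sign turned. Macrophage markers were higher under anti-PDL1 for 9 of 10 genes, with 0 called, while 51% of all genes were lower. They summed to 3250 to 3347 CPM, against 3120, 1919 and 3460 in isotype tumours, of which isotype 2 was the low one. Their part in the MMP values was not tested.

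BTZ+anti-PDL1 against anti-PDL1 asked what BTZ added to the antibody. All 10 members had a lower fitted mean with BTZ, though Mmp9, Mmp10, Mmp13 and Timp2 turned sign under at least 1 other setting, Mmp13 to 0.13 without BTZ+anti-PDL1 1 and to 0.085 without BTZ+anti-PDL1 2. By edgeR 0 of 10 passed, where 0.0138% of all genes tested did, and the lowest adjusted p was 0.877 (Mmp2). At an unadjusted p under 0.05 there were 0 of 10, against 5.82% of all genes. The median log2 fold change was -0.21 beside 0.0029 for all genes, of which 49.2% were lower. In 3 of 10 members (Mmp2, Mmp12 and Timp3) the groups did not overlap, each lower with BTZ, against 14.3% of all genes in either direction. For Mmp12 this held in CPM only: in FPKM, BTZ+anti-PDL1 3 (6.96095) lay above anti-PDL1 2 (6.94914), which leaves Mmp2 and Timp3, 2 of 10. Mmp2 had the largest difference, -1.24 ± 0.62 (SE), 2.37-fold lower, with an interval from -2.70 to 0.22. Mmp12 differed by -0.74 ± 0.47 (SE), from -1.84 to 0.37, Mmp3 by -0.71 ± 0.53 (SE), from -1.96 to 0.55, and Timp3 by -0.70 ± 0.42 (SE), from -1.67 to 0.28. The other 6 lay between -0.27 for Timp1 and -0.025 for Mmp10. The sign of 2 of the smallest turned under a replicate block and on FPKM, to 0.021 and 0.047 for Mmp9 and 0.036 and 0.015 for Mmp10 (pseudocount 1 for FPKM), and without the muscle-rich tumours Mmp10 was at 0.86 and Timp2 at 0.032, Mmp3 at -0.24 and Mmp12 at -0.40. Mmp2 and Timp3 were then at -1.45 and -0.86.

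Marker lists of other cells differed in direction in that comparison, with no gene called. Fibroblast markers were lower with BTZ for 7 of 10 genes, but their summed levels overlapped, at 1467 to 2152 CPM against 1798 to 1975. Neutrophil markers were lower for 6 of 6 tested genes, summed 33.1 to 64.3 CPM against 71.3 to 98.5, while the defining genes Ly6g and Mpo were at or near 0 in every tumour, at most 0.355 and 0.209 CPM. Endothelial markers were lower for 8 of 8 genes, summed 166 to 200 CPM against 210 to 263. T cell markers went the other way, higher for 6 of 6 genes, with overlapping sums of 12.0 to 21.0 CPM against 11.8 to 16.2, and macrophage markers were split, 4 higher and 6 lower. Their part in the Mmp2, Mmp12 and Timp3 values was not tested.

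BTZ+anti-PDL1 against isotype compared the combination with the control antibody. Here 8 members had a lower and 2 a higher fitted mean, while 50.3% of all genes were lower. By edgeR 0 of 10 were called, where 0.00689% of all genes were, and the lowest adjusted p was 0.565 (Timp1). At an unadjusted p under 0.05 there was 1 of 10, against 8.6% of all genes, and groups failed to overlap for 0 of 10, against 13% of all genes. The median log2 fold change was -0.34 beside -0.0011 for all genes. The 1 gene was Timp1, at -0.70 ± 0.29 (SE), 1.62-fold lower, with an interval from -1.35 to -0.042 and an unadjusted edgeR p of 0.0397 that did not hold after adjustment. Timp3 differed by -0.90 ± 0.42 (SE), from -1.87 to 0.077, and Mmp3 by -0.95 ± 0.53 (SE), from -2.20 to 0.31. These rested partly on single isotype tumours. Without isotype 2, Timp1 was at -0.46 and Timp3 at -0.24, and without isotype 1, Mmp3 was at -0.32 and Mmp12 at 0.036 in place of -0.58. Mmp14 (-0.0045, from -0.28 to 0.27) and Timp2 (0.091, from -0.10 to 0.28) had intervals that left out a change of 1.5-fold in either direction. Endothelial markers were lower for 8 of 8 genes, 7 of them at an unadjusted edgeR p under 0.05 and 0 called. They summed to 166 to 200 CPM against 204 to 313. Neutrophil markers were lower for 5 of 6 tested genes. T cell markers were higher for 6 of 6 genes and macrophage markers for 9 of 10, with 0 called. Timp1 and Timp3 followed the endothelial score across tumours and Timp2 did not, as given below. Whether endothelial or other cells carried the TIMP values was not tested.

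A test of any difference among the 3 groups called 0 of 10 members, against 0.0345% of all genes, with 0 of 10 at an unadjusted p under 0.05 against 7.05%, and the lowest adjusted p by edgeR was 0.725 (Timp1). The 3 comparisons share their groups, so they are not separate evidence.

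**Figure D3:**
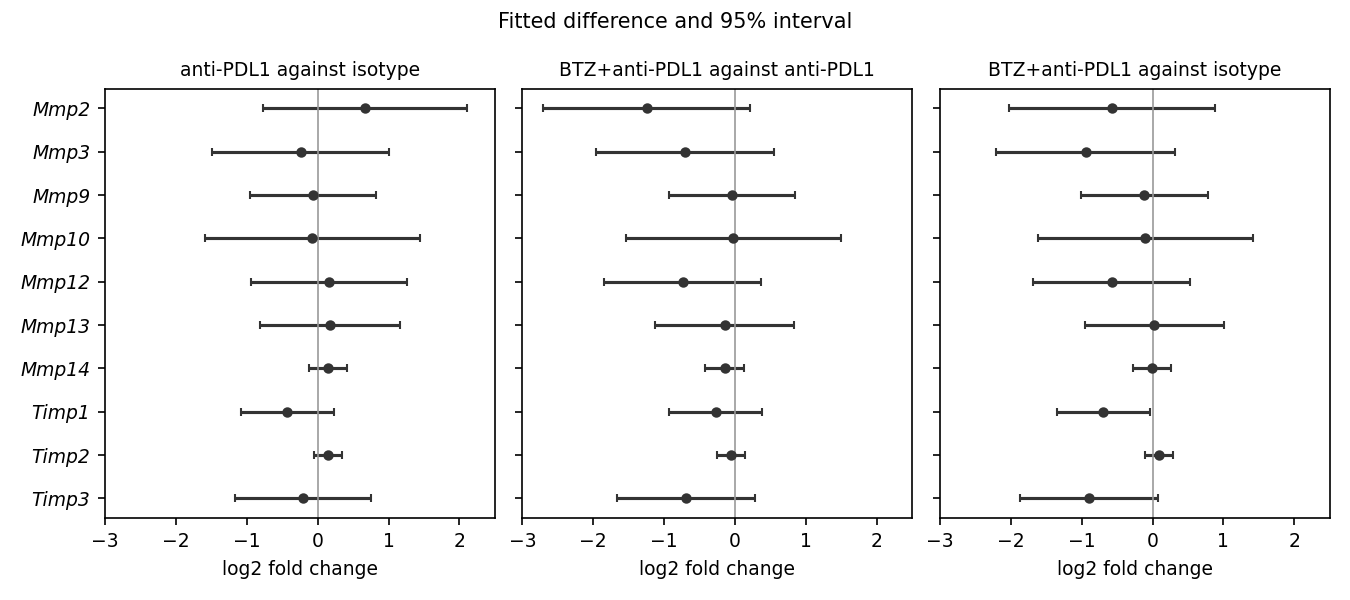
Fitted log2 fold change (points) with 95% interval (bars) for each gene in the 3 comparisons; the grey line is no difference. Only the Timp1 interval in BTZ+anti-PDL1 against isotype leaves out 0, before adjustment for the number of genes, and those of Timp2 and Mmp14 are the narrowest.

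The balance of proteases and inhibitors was described by sums in FPKM, with no test. Summed MMP was 816, 465 and 317 FPKM in isotype tumours, 590, 456 and 444 under anti-PDL1, and 254, 463 and 324 under BTZ+anti-PDL1. Summed TIMP kept within 147 to 178 FPKM in all 9 tumours. The ratio of the sums therefore followed the MMPs, at 5.54, 2.62 and 1.93 in isotype tumours, 3.37, 2.86 and 2.64 under anti-PDL1, and 1.59, 2.85 and 2.12 under BTZ+anti-PDL1. Mmp3 alone supplied 46.6% to 80.4% of the MMP sum, and Timp2 70.7% to 87.2% of the TIMP sum. With transcript lengths in place of those behind FPKM the ratio was 2.10 to 5.71. The ratio of Timp1 to Mmp9, an inhibitor and a protease it binds well, was 2.42, 4.88 and 2.18 in isotype tumours, 3.11, 2.09 and 2.17 under anti-PDL1, and 2.25, 2.07 and 1.66 under BTZ+anti-PDL1, with isotype 2 apart from the rest.

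The members Mmp3, Mmp10, Mmp12 and Mmp13, lie together in the MMP cluster of chromosome 9 (mm10, chr9:7272514-7699585, 427 kilobases), with 11 genes in the table, 10 of them MMPs. In chromosome order these are Mmp13, Mmp12, Mmp1b, Mmp3, Mmp1a, Mmp10, Mmp8, Mmp27, Mmp20, AV064505 and Mmp7. Levels of neighbours differed widely. Mmp3 averaged 306 FPKM, while Mmp1b on one side averaged 0.617 and Mmp1a on the other 0.340, and Mmp8, the neutrophil collagenase, averaged 1.41 and Mmp27 0.344. Mmp20, AV064505 and Mmp7 had no count in any tumour. The interstitial collagenases Mmp1a and Mmp1b are 90.6% identical in coding sequence with a run of 134 identical bases, and Mmp1b overlaps the end of Mmp12 on the opposite strand over 1261 bases, so their low counts are uncertain.

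Promoters of this cluster are shown because the AP-1 element, bound by Fos and Jun proteins, is the textbook control site of several of its genes. The RefSeq promoter table (GRCm38.p6, of which mm10 is the browser name) held 8 of the 10 members, without Mmp2 and Mmp9. The letters TGAGTCA were searched on both strands (TGACTCA on the other) in the 250 bases before the start. They stood in all 4 members of the cluster, in Mmp12 at 1 of its 2 listed starts, and in 0 of the other 4 members in the table (Mmp14, Timp1, Timp2 and Timp3). The cluster was not uniform: of its other MMPs, Mmp1a, Mmp1b and Mmp7 (at 1 of 2 starts) held the letters, and Mmp8, Mmp20 and Mmp27 did not. Of 32851 promoters of the same length, 4.46% held them. The ETS letters AGGAAG, searched on both strands of the same windows and not overlapping these, stood in Mmp3, Mmp12 (at its other start), Mmp13, Mmp14, Timp1 and Timp3 and in 29.5% of all promoters. The 100 bases before the start follow, with the AP-1 letters in capitals.
Mmp13: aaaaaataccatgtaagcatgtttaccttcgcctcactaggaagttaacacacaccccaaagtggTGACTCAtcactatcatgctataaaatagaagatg
Mmp12: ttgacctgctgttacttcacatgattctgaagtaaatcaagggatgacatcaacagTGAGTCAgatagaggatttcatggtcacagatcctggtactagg
Mmp3: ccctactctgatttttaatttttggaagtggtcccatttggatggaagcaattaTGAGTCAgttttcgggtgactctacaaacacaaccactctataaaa
Mmp10: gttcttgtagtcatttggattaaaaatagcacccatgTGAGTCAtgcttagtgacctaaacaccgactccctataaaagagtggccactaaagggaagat
These are chr9:7272414-7272513, chr9:7347274-7347373, chr9:7445722-7445821 and chr9:7502242-7502341, all on the plus strand, and the first AP-1 base lay 35, 44, 46 and 63 bases before the start. A match of letters describes the sequence and shows no binding.

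Across the 9 tumours the cluster genes did not vary as 1 block. Pearson's r of log2 CPM with Mmp3 was 0.85 for Mmp12, 0.75 for Mmp1b, 0.65 for Mmp10, 0.48 for Mmp1a and 0.28 for Mmp13, and -0.47 for Mmp8 and -0.52 for Mmp27. These values describe 9 tumours that share groups and library scaling. Reads of Mmp3 could be counted for Mmp10, and Mmp1b overlaps Mmp12 on the opposite strand, so the r of Mmp10 and Mmp1b are uncertain. The r of Mmp3 and Mmp12 ran from 0.76 to 0.89 when each tumour was left out in turn, and was 0.85 after group means were removed. Mmp13 gave 0.54 with Mmp12 and -0.071 with Mmp10. Outside the cluster, Mmp14 varied with Mmp12 (0.79), Timp2 (0.77) and Mmp3 (0.75) and against Mmp9 (-0.83), and Mmp9 also ran against Timp2 (-0.77). Timp1 and Timp3 went together (0.80, from 0.62 to 0.90 on leaving out 1 tumour), as did Mmp2 and Timp3 (0.71), whereas Timp2 showed -0.52 with Timp1 and -0.040 with Timp3. Mmp2 and Mmp14, which act in 1 activation complex with Timp2, gave -0.30, and -0.78 after group means were removed. The other pairs of this paragraph outside the cluster that reached 0.71 in size kept their sign on removing group means, at 0.78 for Mmp14 with Mmp12, 0.77 with Timp2, 0.87 with Mmp3 and -0.90 with Mmp9, -0.89 for Mmp9 with Timp2, 0.81 for Timp1 with Timp3 and 0.74 for Mmp2 with Timp3.

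**Figure D4:**
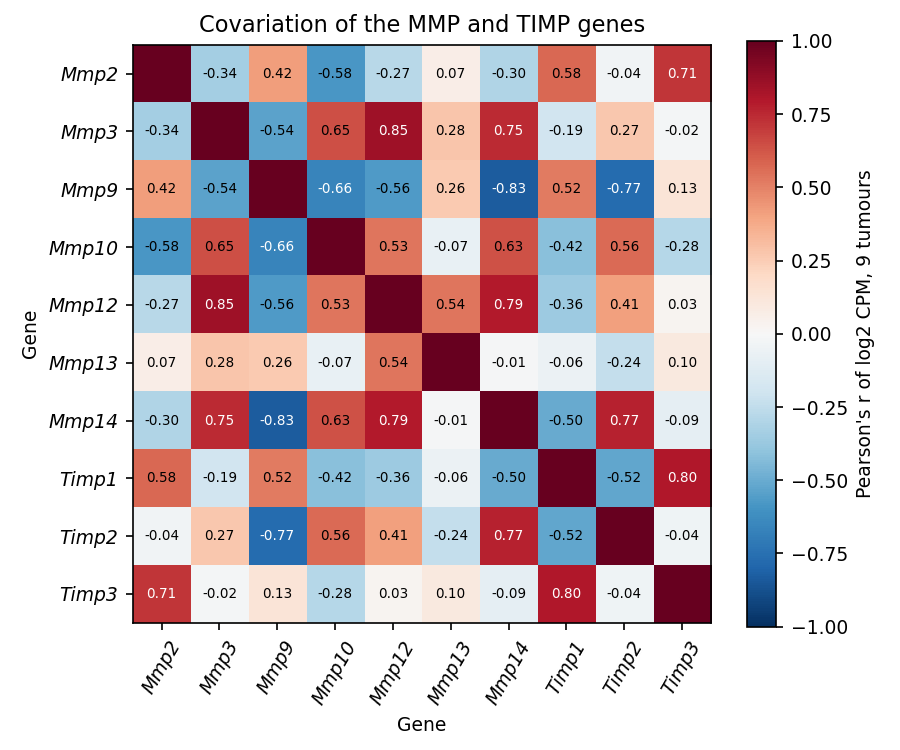
Pearson's r of log2 CPM over 9 tumours for each pair of the 10 genes, printed in each cell and coloured from -1 to 1. Mmp3, Mmp10, Mmp12, Mmp14 and Timp2 are positive with one another, Timp1, Timp3 and Mmp2 form another positive set, and Mmp9 is negative with Mmp3, Mmp10, Mmp12, Mmp14 and Timp2. Reads of Mmp3 could be counted for Mmp10.

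The genes most like each member over the 9 tumours were read among 12297 genes with at least 1 CPM. For Mmp2 they were Sulf1 (0.98), Slit3 (0.98) and Col5a2 (0.97), which are genes of matrix and stromal cells. For Mmp9 they were Nlrp3 (0.94), the inflammasome sensor of myeloid cells, Adam8 (0.91), a metalloprotease of leukocytes, and Alg8 (0.91). For Mmp3 they were Ing1 (0.97), Lemd2 (0.96) and Ghr (0.94), for Mmp12 Fbxo38 (0.95), Dnm2 (0.92) and Cyp39a1 (0.92), and for Mmp14 Rgma, Tmx4 and Ctxn1 (0.95 each). Timp1 was most like Lrrc59 (0.98), Tomm40 (0.98) and Ddx21 (0.97), and Timp3 most like Larp1 (0.98), Myh9 (0.97) and Rtn4rl2 (0.96). Timp2 was most like Glud1 (0.95), Kdsr (0.94) and Spsb1 (0.93), Mmp10 like Apbb1 (0.94), Bnip2 (0.92) and Oxr1 (0.92), and Mmp13 like Cep83os (0.96), Dnajc17 (0.93) and Tnpo1 (0.92). Such maxima over so many genes are high by selection and are given as a description.

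Against scores of cell type markers (the mean centred log2 CPM of a list), Timp1 gave r of 0.84 and Timp3 0.86 with 8 endothelial genes over the 9 tumours. Timp2 gave -0.27 with these. Timp1 and Timp3 gave -0.59 and -0.64 with T cell genes and -0.49 and -0.75 with lung adenocarcinoma and epithelial genes. With 2 keratinocyte genes they gave 0.72 and 0.82. These 2 were Dmkn and Sbsn, as Lor and the keratins Krt5, Krt14, Krt10, Krt1 and Krt15 did not pass the filter on low counts. Krt5 had 149 counts in isotype 3 and at most 6 in any other tumour, so the score does not follow the keratins. For Mmp2 the highest was 0.76 with the keratinocyte genes, then 0.72 with smooth muscle and pericyte, 0.59 with osteoclast and chondrocyte, 0.56 with adipocyte, 0.55 with fibroblast and 0.55 with endothelial genes. For Mmp9 it was 0.58 with osteoclast and chondrocyte genes, then 0.51 with smooth muscle and pericyte, 0.45 with neutrophil and, further down, 0.27 with macrophage genes. The osteoclast and chondrocyte score rested on 5 genes, Acp5, Ctsk, Oscar, Col2a1 and Sox9. Calcr, Acan and Col10a1 did not pass the filter, so presence of those cells is not shown. Mmp12 was highest with neutrophil genes, at 0.21, and gave -0.27 with macrophage and -0.60 with smooth muscle and pericyte genes. With smooth muscle and pericyte genes Mmp3 gave -0.65, Mmp14 -0.64, Mmp10 -0.45, Mmp13 -0.22 and Timp2 -0.21, and Timp1 0.64 and Timp3 0.57. The smooth muscle and pericyte list held Des, which was high in the muscle-rich tumours. Its counts were 3073 in isotype 3, 1374 in anti-PDL1 1 and 1319 in BTZ+anti-PDL1 1, and at most 419 in the others. The r values of this paragraph share the tumours and scaling and carry no test.

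The rest of the MMP system was read from lists of named genes, in the same fit. Of 16 other MMPs, 10 were tested and 0 were called in any comparison. Mmp7, Mmp20, Mmp21 and Mmp24 had no count, Mmp16 stayed at or below 0.0534 CPM and Mmp17 at or below 0.575 CPM. Beside the cluster genes, Mmp19 was at 34.0 to 52.5 CPM, Mmp11 (stromelysin 3) at 21.2 to 30.3, Mmp28 at 4.84 to 10.1, Mmp15 at 2.40 to 6.78, Mmp23 at 2.13 to 5.89 and Mmp25 at 0.792 to 4.37. BTZ+anti-PDL1 against anti-PDL1 had 8 of the 10 lower, with a median log2 fold change of -0.41, anti-PDL1 against isotype had 7 higher, with a median of 0.27, and BTZ+anti-PDL1 against isotype had 7 lower, with a median of -0.13. The lowest p in these was for Mmp15, another membrane-type MMP, in BTZ+anti-PDL1 against isotype, at -0.82 ± 0.28 (SE) with an edgeR adjusted p of 0.540. Mmp15 was at 3.78, 6.78 and 6.38 CPM in isotype tumours, 3.35, 4.01 and 5.06 under anti-PDL1, and 2.40, 3.53 and 3.69 under BTZ+anti-PDL1. It did not overlap between the isotype and BTZ+anti-PDL1 groups, which was so for 13% of all genes in either direction.

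A list of 5 further genes held the inhibitors Timp4, Reck, Tfpi2 and A2m, and Pcolce, which enhances procollagen C-proteinase and is no inhibitor of it. Timp4 was at most 0.261 CPM and was not tested, and 0 of the other 4 were called. Reck, a membrane-anchored MMP inhibitor, was at 5.02 to 9.44 CPM, Tfpi2 at 0.630 to 2.44, A2m at 0 to 1.70, and Pcolce at 206 to 320. Reck, Tfpi2 and A2m had a lower fitted mean in BTZ+anti-PDL1 against anti-PDL1, at -0.16, -0.69 and -1.60, and a higher one in anti-PDL1 against isotype, at 0.28, 0.22 and 1.61. Pcolce was at -0.029 and -0.12 in these. BTZ+anti-PDL1 against isotype gave 0.12 for Reck, 0.012 for A2m, -0.47 for Tfpi2 and -0.15 for Pcolce.

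Activators, partners and inducers were likewise uncalled. With BTZ+anti-PDL1 set against isotype, where 50.3% of all genes were lower, 7 of 9 tested genes of the plasminogen system and other activators were lower. Their median was -0.18. Plau, the urokinase that makes plasmin, was at 434, 406 and 294 CPM in isotype tumours and 267, 308 and 223 with BTZ+anti-PDL1, a log2 difference of -0.51 ± 0.17 (SE, edgeR adjusted p 0.540), while St14, the matriptase gene, differed by 1.21 ± 0.42 (SE, adjusted p 0.540) from a low level of 0.346 to 1.35 CPM. Plg, the plasminogen gene, had no count. Among 11 partners, 9 were lower, and Lcn2, whose product binds and protects Mmp9, was at 2.62, 2.77 and 6.27 CPM in isotype tumours, 3.85, 3.96 and 3.75 under anti-PDL1, and 1.20, 0.481 and 1.77 under BTZ+anti-PDL1. Every BTZ+anti-PDL1 tumour was below all others in Lcn2. The differences were -1.75 ± 0.47 (SE, edgeR adjusted p 0.458) against isotype and -1.74 ± 0.47 (SE, edgeR adjusted p 0.634) against anti-PDL1. In these comparisons groups failed to overlap, in either direction, for 13% and 14.3% of all genes. Lcn2 is also a neutrophil gene. Summed neutrophil markers, at 33.1 to 64.3 CPM under BTZ+anti-PDL1, lay below all anti-PDL1 tumours (71.3 to 98.5). They overlapped with isotype, at 71.0, 45.3 and 105 CPM, where Lcn2 did not. The source of Lcn2 was not tested.

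Of 15 AP-1, ETS and other regulators, 13 were lower in BTZ+anti-PDL1 against isotype and 13 in anti-PDL1 against isotype, both with 0 called, with medians of -0.22 and -0.23. The isotype 2 tumour, the one with the least T cell marker RNA, stood apart here, with a summed level of 2641 CPM against 1444 to 1841 in the other 8. Jun was at 308, 518 and 310 CPM in isotype tumours and 290, 263 and 278 with BTZ+anti-PDL1, and Junb at 144, 202 and 161 against 142, 96.8 and 128. Isotype 2 was also the highest of the 9 tumours for Osm, Lif, Col4a1 and Col4a2, and in the sum of the plasminogen list, at 1421 CPM against 685 to 887. For Il6 it was the highest in CPM but not in FPKM, at 0.712 against 0.730 in isotype 3. Junb differed by -0.47 ± 0.17 (SE, adjusted p 0.543) and Jun by -0.45 ± 0.19 (SE, adjusted p 0.565) in BTZ+anti-PDL1 against isotype. Of 9 tested cytokine inducers 6 were lower there, with a median of -0.51, among them Il6 at -1.60 ± 0.62 (SE, adjusted p 0.549) and Osm at -0.93 ± 0.30 (SE, adjusted p 0.520), and Lif differed by -1.21 ± 0.39 (SE, adjusted p 0.763) in anti-PDL1 against isotype. Of 12 matrix substrates, 10 were lower in BTZ+anti-PDL1 against isotype, with a median of -0.098, and the basement membrane collagens Col4a1 and Col4a2, substrates of the gelatinases, differed by -0.33 ± 0.12 and -0.38 ± 0.13 (SE, adjusted p 0.543 and 0.540). Of 16 ADAM and ADAMTS proteases 11 were lower there, with a median of -0.16, the lowest p being for the aggrecanase Adamts4 at -0.43 ± 0.12 (SE, adjusted p 0.492). The ADAMTS protease Adamts12 differed by -0.80 ± 0.24 (SE, adjusted p 0.701) in BTZ+anti-PDL1 against anti-PDL1. All adjusted p values are from the edgeR fit over the whole table.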

How the data were processed

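RNA of 9 tumours was sequenced from total RNA. The deposited counts are whole numbers per gene and not normalised, per the file headers, and the FPKM values were computed by the authors. Per the submitters' processing notes the tools were HISAT2 2.0.4 and StringTie 1.3.3b and the build mm10, with no roles stated. How reads were counted, and whether by strand, is not given in the sources used here. Group and replicate came from the labels, where the control is isotype although its library titles say blank. The count test was that of edgeR 4.0.16, run in R 4.3.3 (TMM, filterByExpr with a minimum count of 10, robust quasi-likelihood F test, 1 model of 3 group means over 9 tumours), with Benjamini-Hochberg adjustment over 14506 genes and calls at 0.05. Each SE was derived from the fitted fold change and its F statistic. The median SE was 0.138. Alternatives used DESeq2 1.42.0 and limma 3.58.1. The fit was tested on simulated data. Members, gene lists and the naming rule (all members, other MMPs, inhibitors and cluster genes; the 2 lowest p per other list and comparison, of which some are printed; the 3 most alike genes) were chosen with earlier results of these data known.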

Additional observations from a re-analysis of the deposited data

How the results depend on the processing

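No member was called under any of 17 settings. The lowest adjusted p of a member, 0.213, was for Timp1 in BTZ+anti-PDL1 against isotype without isotype 1 (edgeR). Of 510 values of member log2 fold changes under an alternative, 462 kept their direction and 48 reversed, and the cause was not tested. Without the muscle-rich tumour of each group, reversed values in anti-PDL1 against isotype were 0.64 for Mmp9, -0.36 for Mmp12 and -0.050 for Mmp14. In BTZ+anti-PDL1 against anti-PDL1 they were 0.86 for Mmp10 and 0.032 for Timp2, and in BTZ+anti-PDL1 against isotype 0.33 for Mmp9. The replicate block, limma on log2(FPKM + 1) and on log2(FPKM + 0.1) gave 0.021, 0.047 and 0.058 for Mmp9 and 0.036, 0.015 and 0.044 for Mmp10 in BTZ+anti-PDL1 against anti-PDL1. For BTZ+anti-PDL1 against isotype they gave -0.13, -0.057 and -0.11 for Mmp13 and 0.0047, 0.029 and 0.029 for Mmp14.

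Leaving out 1 tumour at a time reversed 14 member results. In anti-PDL1 against isotype these ranged from -0.59 to 0.39 for Mmp3, -0.29 to 0.33 for Mmp9, -0.63 to 0.34 for Mmp10, -0.19 to 0.77 for Mmp12 and -0.53 to 0.46 for Timp3. In BTZ+anti-PDL1 against anti-PDL1 they ranged from -0.35 to 0.18 for Mmp9, -0.72 to 0.52 for Mmp10, -0.86 to 0.13 for Mmp13 and -0.13 to 0.025 for Timp2. In BTZ+anti-PDL1 against isotype they ranged from -0.29 to 0.29 for Mmp9, -0.80 to 0.27 for Mmp10, -0.93 to 0.036 for Mmp12, -0.68 to 0.31 for Mmp13 and -0.12 to 0.099 for Mmp14.

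Over all genes, calls in anti-PDL1 against isotype were 2, and 15 with DESeq2, 1 with the replicate block, 0 without the muscle-rich tumours and 1 to 4 with 1 tumour left out. In BTZ+anti-PDL1 against anti-PDL1 they were 2, and 60 with DESeq2, 4 without the filter, 12 with only the 6 tumours compared, 1 with the block, 0 without the muscle-rich tumours and 1 to 7 with 1 tumour left out. For BTZ+anti-PDL1 against isotype they were 1, and 111 with DESeq2, 6 without the filter, 3 on either FPKM scale, 0 with the block, 0 with only the 6 tumours, 0 without the muscle-rich tumours and 0 to 20 with 1 tumour left out. For any difference they were 5, and 138 with DESeq2, 1 with the block, 0 without the muscle-rich tumours and 1 to 8 with 1 tumour left out. Of 9 same-numbered pairs, 3 had a correlation of deviations from the group mean over 0.1 (-0.43 to 0.39). Of 9 tumours, 1 was best correlated with its own number. With 3 tumours per group, such deviations cannot exclude a batch shared by number.

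With transcript lengths in place of those behind FPKM, an alternative chosen after the data were seen, Mmp14 moved to place 2, Timp2 to 3, Mmp12 to 5, Mmp9 to 6 and Mmp2 to 7 in the order of levels. The SE was 0.41 to 0.66 for Mmp2, Mmp3, Mmp10, Mmp12, Mmp13 and Timp3, against a median of 0.138 over all genes.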
